A study of Mus musculus with 24 samples.

Results

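The genes of the mitochondrial respiratory chain were followed in whole kidneys of mouse embryos that had lost Wt1 in different cells of the developing nephron. The respiratory chain sits in the inner mitochondrial membrane. Complexes I and II take electrons from NADH and succinate, complex III passes them to cytochrome c, complex IV hands them to oxygen, and complex V, the ATP synthase, uses the proton gradient to make ATP. Proximal tubule cells are among the cells of the kidney richest in mitochondria, since they draw on oxidative metabolism to reabsorb the filtrate, and the nephron gains mitochondria as it matures. Genes were chosen by name, as symbols of the Nduf, Sdh, Uqcr, Cox4 to Cox8 and Atp5 families together with Cycs and Cyc1, and 77 of the 17951 genes on the array matched. A gene was kept where 3 or more of the 24 arrays gave it a detection p below 0.01, which left 68 of these, 62 of them detected in all 24 arrays, among 10371 genes tested. The 68 comprise 31 subunits of complex I, 2 of complex II, 5 of complex III, cytochrome c, 13 of complex IV, Ndufa4 among them, and 13 of complex V. The other 3 match the rule by symbol only. Cox4nb, now Emc8, belongs to a membrane protein complex of the endoplasmic reticulum, Atp5sl, now Dmac2, is known as an assembly protein of complex I, and Atp5s is now Dmac2l.

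Kidneys were taken at E18.5, 3 biological replicates in each of 8 groups, and total RNA was hybridised to Illumina MouseRef-8 v2 bead arrays with 1 array per sample. Nes-Cre Wt1 co/co kidneys, homozygous for the conditional allele and carrying the Nes-Cre transgene, which is active in the kidney mesenchyme, were compared with Wt1 co/co kidneys without Cre. Wnt4 +/CreGFP Wt1 co/co kidneys were compared with Wnt4 +/CreGFP kidneys of wild-type Wt1, and Pax8 +/Cre Wt1 co/co kidneys with Pax8 +/Cre kidneys of wild-type Wt1. Nes-Cre kidneys of wild-type Wt1 were compared with wild-type kidneys. The 3 conditional knockouts are called the Nes, Wnt4 and Pax8 mutants. Both the Wnt4 and the Pax8 driver are knocked into their own gene, so mutants and controls alike carry 1 disrupted copy of it, and Pax8 +/Cre is also active in the ureteric bud. Nes-Cre is known to act incompletely, so that some nephrons keep Wt1. The strain is given as C57BL/6 in the labels and as a mixed C57BL/6/129Ola background in the methods, where 1 Nes-Cre Wt1 co/co sample is also said to have failed quality control without being identified.

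Levels are normalized log2 signals, and a log2 change is the mean of the mutant arrays minus the mean of the control arrays of the same set of 6 arrays, with 3 arrays in each group. A gene was called higher or lower at an adjusted p under 0.05 from limma over all 10371 genes. Nes-Cre Wt1 co/co replicate 1 stands apart from the other arrays. Its median absolute deviation from its group mean over all tested genes was 0.10, against 0.025 to 0.064 in the other 23 arrays. The summed level of 11 tested striated muscle genes was 47245 in it, and 2146 and 2218 in replicates 2 and 3 of that mutant. The arrays of the other groups lay at 1514 to 1847. That of 10 stroma genes was 30091 in replicate 1, against 9532 to 15635 in the other 23 arrays. The summed level of 19 proximal tubule genes was 2602 in it, against 12862 and 18280 in the other Nes-Cre Wt1 co/co arrays. The total counts over the respiratory chain genes and their single calls in this mutant are therefore given with and without that array. Counts per complex, across mutants and for the other gene lists are given with it only. In the control groups 15 to 20 of the 20 proximal tubule genes on the array were detected, as a kidney sample should show. Arrays of wild-type and Nes-Cre kidneys had a background of 152.5 to 181.5 intensity units and those of the other sets 48.1 to 70, so that the main comparisons were made within sets. The paper compared each mutant with kidneys carrying only the Cre. For the Nes mutant that comparison crosses sets and is given as an alternative.

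Respiratory chain genes were called lower more often than higher in each mutant, and most often in the Wnt4 mutant. There 31 of 68 were called lower and 0 higher, whereas 8.91% of all tested genes were called lower and 8.67% higher. Without Wnt4 mutant replicate 1 the count was 18, and 19 under scaling to the 75th percentile. In the Pax8 mutant 17 were called lower and 0 higher, against 3.68% and 3.28% of all tested genes. Without Pax8 +/Cre replicate 1, 2 or 3 these were 11, 10 and 9, and the authors' ratio values gave 1. Array weights gave 35 lower and 4 higher there, beside 36 and 1 in the Wnt4 mutant, and 25 were lower without Nes-Cre Wt1 co/co replicate 1, which enters the shared estimate of the spread. In the Nes mutant 15 were called lower and 4 higher, against 13.1% and 11.1% of all tested genes. Scaling to the 75th percentile gave 14 lower and 8 higher there, and the authors' ratio values gave 17 and 0. Against Nes-Cre kidneys, which crosses array sets, 19 were lower and 15 higher, and of the 19 genes called in the main comparison 11 were still called in the same direction, 6 lost the call and 2 turned sign. At an unadjusted p under 0.05 from limma, 1 of the 68 was higher in the Wnt4 mutant and 1 in the Pax8 mutant, against 16.7% and 10.5% of all tested genes. The share of the 68 called lower was thus 45.6%, 25% and 22.1% in the Wnt4, Pax8 and Nes mutants. Here and below, counts under other settings or with an array left out have no background beside them. The share of all tested genes called was not counted there. In whole-kidney RNA, fewer cells of a type and less of a transcript in each cell cannot be told apart.

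The shifts were small in size. The median log2 change of the 68 genes was -0.22 in the Wnt4 mutant, where that of all tested genes was 0.015, and 59 of the 68 changes were negative, against 40.9% of all tested genes. In the Pax8 mutant the median was -0.17 beside 0.010 for all genes, with 57 of 68 negative against 42.2%. In the Nes mutant it was -0.074 beside 0.0013, with 41 of 68 negative against 49.4%. Without Nes-Cre Wt1 co/co replicate 1 that median was -0.11, with 18 genes called lower and 2 higher, and scaling to the 75th percentile turned it to 0.0096 while the median of all genes moved to 0.22. A fit of only the 6 arrays of this comparison called 1 lower and 0 higher.

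The shift was seen in each mutant array of the Wnt4 and Pax8 sets. The median difference of the 68 genes from the control mean was -0.27, -0.25 and -0.20 in the 3 Wnt4 mutant arrays and -0.03 to 0.05 in their controls. Below their control mean lay 57, 62 and 54 of the 68 genes in these mutant arrays. In the Pax8 set the mutant arrays were at -0.22, -0.15 and -0.15 and the controls at -0.023 to 0.0044. The mutant and control arrays do not overlap in either set. Each control array enters the mean it is measured from, so the control medians are centred by construction. In the Nes set replicate 1 was at -0.021, and replicates 2 and 3 were at -0.13 and -0.10, while the controls lay between -0.00070 and 0.0078.

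**Figure D1:**
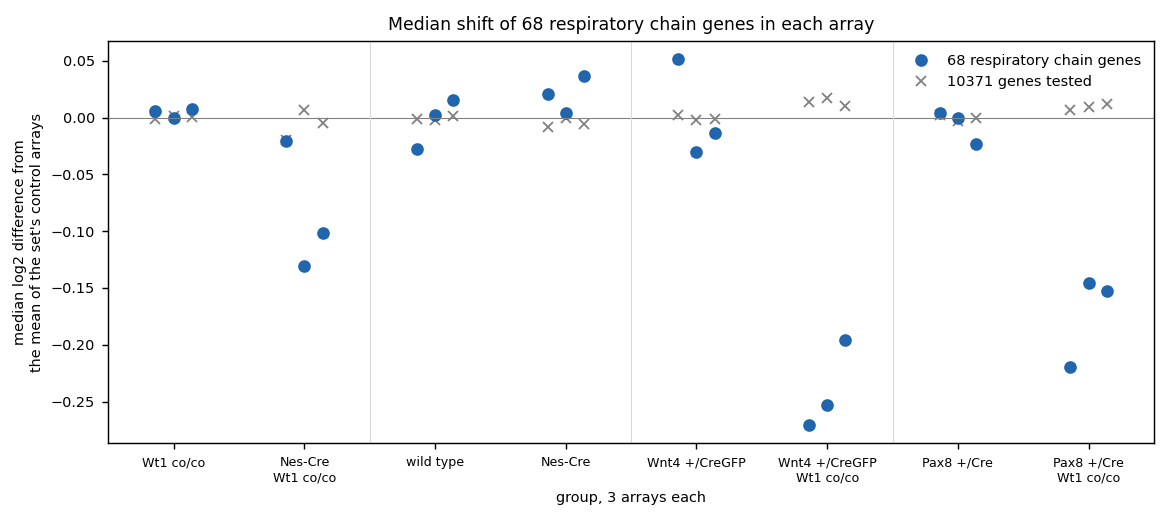
Median log2 difference of 68 respiratory chain genes (blue circles) and of 10371 tested genes (grey crosses) in each array from the mean of the control arrays of its set, with 3 arrays per group. The Wnt4 +/CreGFP Wt1 co/co arrays lie at -0.27 to -0.20 and the Pax8 +/Cre Wt1 co/co arrays at -0.22 to -0.15, while Nes-Cre Wt1 co/co replicate 1 lies at -0.021.

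Counting across mutants, 42 of the 68 genes were called in at least 1 and 26 in none. Lower in all 3 were 7 genes, namely Ndufs3 and Ndufs7 of complex I, Sdhb of complex II, Cyc1 of complex III, and Cox5a, Cox5b and Cox7a1 of complex IV. Another 11 were lower in 2 mutants and 20 in 1, and 4 were higher in the Nes mutant and called in no other. The 15 genes called lower in the Wnt4 mutant alone form the largest of these patterns. Of the 7 genes lower in all 3 mutants, only Sdhb kept each call when any 1 array was left out. The same overlaps were not counted over all tested genes, so these counts have no background beside them. A call in 1 mutant and not in another does not show that the effects differ, and the tests of that difference are given after the complexes.

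**Figure D2:**
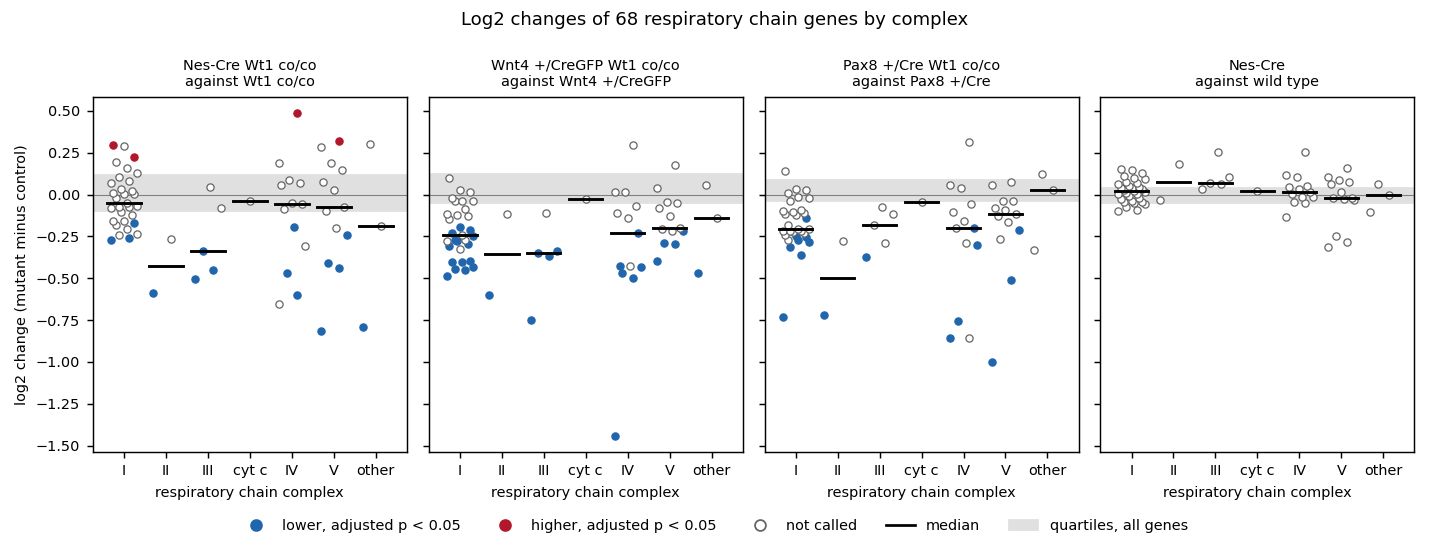
Log2 change of each of 68 genes (circles) by complex in the 3 mutants and in Nes-Cre kidneys of wild-type Wt1, filled where called at an adjusted p under 0.05 from limma, with the median of each complex (black bar) and the quartiles of all tested genes (grey band). In the Wnt4 mutant the medians of complexes I to V lie between -0.36 and -0.20, and in Nes-Cre kidneys no gene is called.

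Complex I, which oxidises NADH, had 15 of its 31 genes called lower in the Wnt4 mutant, 8 in the Pax8 mutant and 3 in the Nes mutant, where 2 were higher. The shares called lower were 48.4%, 25.8% and 9.68%, against 8.91%, 3.68% and 13.1% of all tested genes. In the Nes mutant that share was thus below the share of all tested genes, as was the 6.45% called higher against 11.1%. Its median log2 changes were -0.24, -0.20 and -0.049. Of the core subunits, Ndufs3 was at 11.70, 11.59 and 11.60 in the Wnt4 +/CreGFP arrays and 11.15, 11.27 and 11.13 in the mutant arrays. The groups do not overlap, and the fall was 1.36-fold (log2 change -0.44, SE 0.08, limma adjusted p = 0.00080). In the Pax8 and Nes mutants its log2 changes were -0.28 and -0.26 (limma adjusted p = 0.040 and 0.025), the arrays of the Nes set overlap slightly, and against Nes-Cre kidneys, which crosses sets, the value was 0.018. The Pax8 call of Ndufs3 was lost without Pax8 mutant replicate 2 or 3 or any Pax8 +/Cre array (limma adjusted p = 0.075 to 0.17), and the Nes call without Wt1 co/co replicate 1 or 3 or Nes mutant replicate 2 (0.079 to 0.11). Ndufs3 lies on chromosome 2, as Wt1 does. In the Wnt4 and Pax8 sets only the mutants carry the conditional allele, and strain differences around it were not tested. Ndufs7, an iron-sulphur subunit at the quinone site, fell by 0.27 on the log2 scale in the Wnt4 mutant, by 0.27 in the Pax8 mutant and by 0.17 in the Nes mutant (limma adjusted p = 0.0021, 0.0046 and 0.029). The last call was lost without any 1 array of its set other than Nes mutant replicate 1 (0.058 to 0.10).

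Ndufs8, another iron-sulphur subunit, was called lower in the Nes and Pax8 mutants (log2 change -0.27 and -0.24), while in the Wnt4 mutant it was at -0.13 and not called. Among accessory subunits, Ndufa12 was at 11.88, 11.69 and 11.84 in Wnt4 +/CreGFP kidneys and at 11.21, 11.39 and 11.36 in the mutant. Its log2 change there was -0.48 (limma adjusted p = 0.011, and 0.057 without Wnt4 mutant replicate 1), the largest fall of complex I in this mutant. In the Pax8 mutant its change was 0.14 (limma adjusted p = 0.62). Ndufb5, of the membrane arm, was at 9.28, 9.31 and 9.44 in Pax8 +/Cre kidneys and at 8.85, 8.69 and 8.31 in the mutant, 1.66-fold lower (limma adjusted p = 0.017). Without Pax8 mutant replicate 3, or Pax8 +/Cre replicate 2 or 3, that adjusted p was 0.054 to 0.080. In the Wnt4 mutant the Ndufb5 arrays overlap with the controls (change 0.025). Ndufc2 was the complex I gene that rose most in the Nes mutant, from 11.96, 11.97 and 12.08 to 12.38, 12.26 and 12.28 (log2 change 0.30, SE 0.07, limma adjusted p = 0.0077), and by 0.26 without replicate 1. Against Nes-Cre kidneys the same change was 0.15 (limma adjusted p = 0.13). Ndufa7 was also called higher at 0.22 (limma adjusted p = 0.041, and 0.079 to 0.18 without Wt1 co/co replicate 1 or 3 or mutant replicate 1 or 3), with overlapping arrays, and at -0.022 in the authors' ratio values.

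Complex II couples the citric acid cycle to the chain. Its iron-sulphur subunit Sdhb was at 10.39, 10.44 and 10.22 in Wt1 co/co kidneys and at 9.84, 9.59 and 9.86 in the Nes mutant. In the Wnt4 set it was at 10.34, 10.46 and 10.37 in controls and 9.76, 9.66 and 9.95 in mutants. In the Pax8 set it was at 9.84, 9.61 and 9.44 in controls and 8.78, 8.91 and 9.05 in mutants. No mutant array reached the controls of its set. The log2 change of Sdhb was -0.59, -0.60 and -0.72 in the Nes, Wnt4 and Pax8 mutants (limma adjusted p = 0.00061, 0.00059 and 0.00027), and each call held without any 1 array. Against Nes-Cre kidneys of the other set the Nes value was 0.090 (limma adjusted p = 0.52). With the change of Nes-Cre against wild-type kidneys subtracted from the within-set Nes change, it was -0.77 (limma adjusted p = 0.0020). The membrane anchor Sdhd was not called, at -0.26, -0.12 and -0.28, but its levels of 7.08 to 7.74 lie near the background, where neqc compresses changes. With the background read directly the Nes change of Sdhd was -0.91 (limma adjusted p = 0.024). The other anchor, Sdhc, was not kept. Its intensity was 1068 to 2879, far above the background, yet its deposited detection p was 0.015 to 0.49, and 263 genes had an intensity over 1000 with a detection p of 0.01 or more in some array. In a fit without the detection filter Sdhc changed by 0.016, -0.020 and -0.28 in the Nes, Wnt4 and Pax8 mutants and was not called.

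Complex III had 4 of its 5 genes called lower in the Wnt4 mutant, 3 in the Nes mutant and 1 in the Pax8 mutant. Of all tested genes 8.91%, 13.1% and 3.68% were called lower in the same mutants. Cyc1, the cytochrome c1 that passes electrons to cytochrome c, was at 11.79, 11.75 and 11.76 in Wnt4 +/CreGFP kidneys and at 10.89, 11.08 and 11.09 in the mutant. It fell 1.68-fold (SE of the log2 change 0.09, limma adjusted p = 1.7e-05). In the Nes set Cyc1 went from 11.84, 11.91 and 11.97 to 11.26, 11.39 and 11.54, a fall of 1.42-fold (limma adjusted p = 0.00061). In the Pax8 set it went from 11.65, 11.34 and 11.57 to 10.99, 11.17 and 11.28, 1.30-fold (limma adjusted p = 0.016), and without Pax8 mutant replicate 1, or Pax8 +/Cre replicate 1 or 3, the adjusted p was 0.071 to 0.083. The core protein Uqcrc1 fell by 0.45 in the Nes mutant and by 0.37 in the Wnt4 mutant (limma adjusted p = 0.00023 and 0.0016). Uqcrc2, the other core protein, fell by 0.34 and 0.35 (limma adjusted p = 0.011 and 0.012). The Wnt4 call of Uqcrc2 was 0.055 without Wnt4 +/CreGFP replicate 1 and 0.054 without mutant replicate 1. In the Pax8 mutant these genes were at -0.18 and -0.12 and were not called. Cytochrome c itself, Cycs, was at 6.94 to 7.06 in every array, next to the lowest normalized value of 6.80. Its changes of -0.039, -0.028 and -0.044 were not called, but with the background read directly it was -1.38 in the Nes mutant (limma adjusted p = 0.00068) and -0.55 and -0.42 in the Wnt4 and Pax8 mutants, not called.

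Complex IV, cytochrome c oxidase, had 6 of 13 genes called lower in the Wnt4 mutant, 4 in the Pax8 mutant and 3 in the Nes mutant, with 1 higher. These shares called lower were 46.2%, 30.8% and 23.1%, against 8.91%, 3.68% and 13.1% of all tested genes. Cox5a, a nuclear-encoded subunit of the enzyme, was at 12.84, 12.82 and 12.92 in Wnt4 +/CreGFP kidneys and 12.30, 12.43 and 12.37 in the mutant, 1.41-fold lower (limma adjusted p = 1.1e-05). In the Nes set it went from 12.99, 12.84 and 12.87 to 12.28, 12.46 and 12.55, 1.39-fold lower (limma adjusted p = 2.4e-05). The Pax8 fall was 1.15-fold (limma adjusted p = 0.044) and was lost without any 1 of the 6 arrays of that set (0.072 to 0.17) and under 7 of 9 other settings. Cox5b fell 1.34-fold, 1.23-fold and 1.14-fold in the Wnt4, Pax8 and Nes mutants, with the Nes call lost without Wt1 co/co replicate 2 or 3 or Nes mutant replicate 2 or 3 (limma adjusted p = 0.055 to 0.11).

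Where complex IV subunits exist as pairs of genes, both forms could be read for some. Cox7a1, the form known from heart and muscle, gave the largest fall of all 68 genes. It was at 9.60, 8.94 and 8.87 in Wnt4 +/CreGFP kidneys and at 7.55, 7.82 and 7.72 in the mutant, 2.71-fold lower (log2 change -1.44, SE 0.18, limma adjusted p = 2.6e-05). In the Pax8 set it went from 8.73, 8.72 and 8.64 to 7.62, 7.86 and 8.02, 1.81-fold lower (limma adjusted p = 0.0066). In the Nes set it went from 8.78, 9.00 and 9.03 to 8.62, 8.14 and 8.24, 1.52-fold lower (limma adjusted p = 0.021). The highest of those mutant arrays is replicate 1, which has the highest summed level of muscle genes. Without it the log2 change was -0.74 (limma adjusted p = 0.0076). Leaving out Wt1 co/co replicate 2 or 3, or Nes-Cre Wt1 co/co replicate 2 or 3, gave 0.053 to 0.067. Cox7a2, the form of most tissues, was 1.69-fold lower in the Pax8 mutant and 1.39-fold lower in the Wnt4 mutant (limma adjusted p = 0.0016 and 0.019). The latter was 0.077 without Wnt4 +/CreGFP replicate 1 and 0.072 without Wnt4 +/CreGFP Wt1 co/co replicate 1, and in the Nes mutant Cox7a2 was at -0.31 (limma adjusted p = 0.099).

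Cox7a2l, a relative that joins complexes III and IV, went the other way. It was at 11.49, 11.36 and 11.55 in Wt1 co/co kidneys and at 11.72, 12.07 and 12.08 in the Nes mutant, a log2 change of 0.49 (SE 0.10, limma adjusted p = 0.0028), and 0.61 without replicate 1. In the Wnt4 and Pax8 mutants its changes were 0.30 and 0.31 (limma adjusted p = 0.060 and 0.088), and mutant and control arrays did not overlap. Cox6a1 and Cox6b1, the common forms of their subunits, were called lower in the Wnt4 mutant alone, by 0.43 and 0.23 (limma adjusted p = 0.0019 and 0.010, the latter 0.051 without Wnt4 +/CreGFP replicate 1). Cox4i1, the common form of subunit 4, was called in no mutant, at 0.088, -0.11 and -0.10. Cox6c was called in no mutant, at -0.66, -0.43 and -0.86 with an SE of 0.32, and its arrays spread from 10.92 to 12.41 in Nes-Cre Wt1 co/co kidneys alone. Cox4i2, Cox6b2 and Cox7b lie near the background at 6.91 to 7.77 and were not called. With the background read directly Cox7b was called lower and Cox6b2 higher in the Nes mutant, at -1.01 and 0.39 (limma adjusted p = 0.024 and 0.047).

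**Figure D3:**
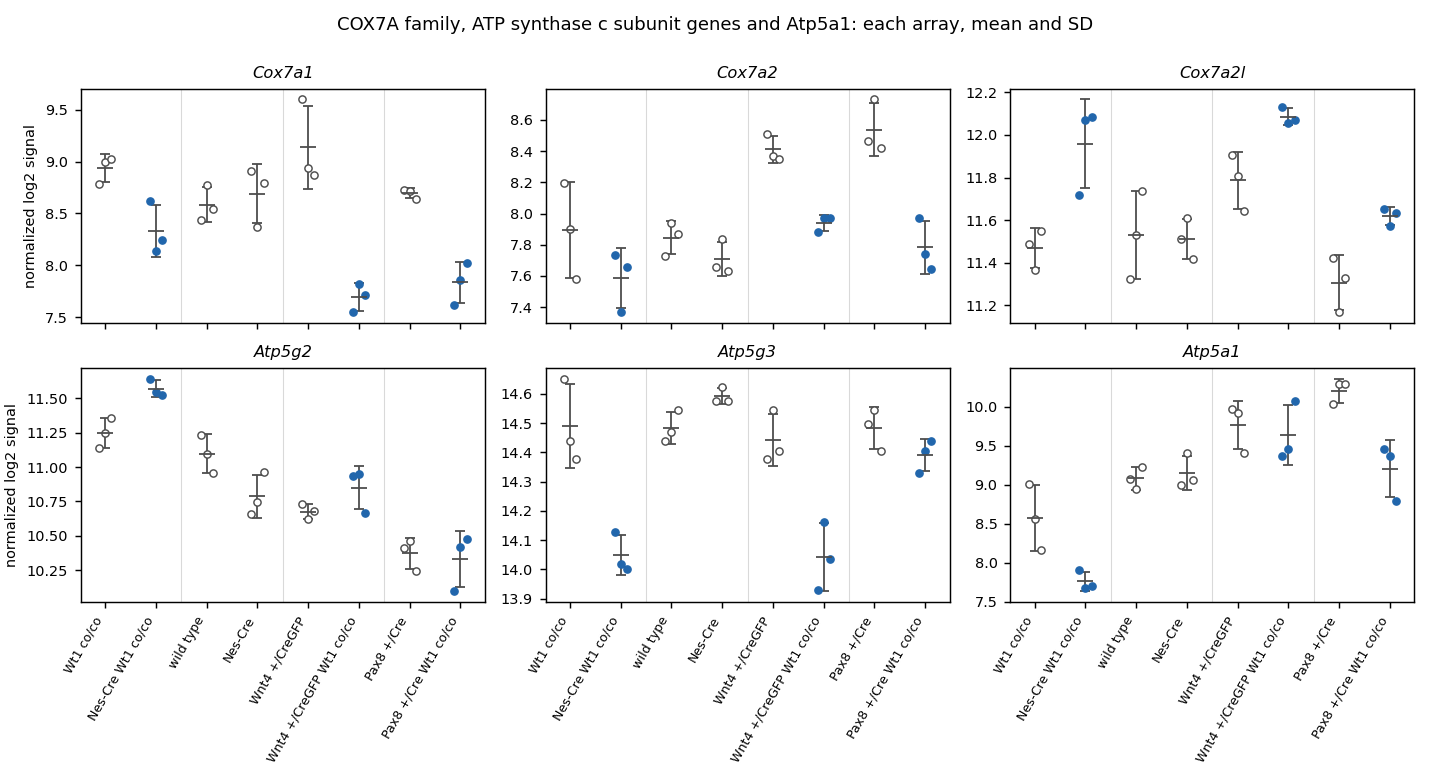
Normalized log2 signal of the COX7A family, 2 genes of the ATP synthase c subunit and Atp5a1 in each array (circles, mutants filled), with the group mean and SD of 3 arrays and grey lines between the 4 array sets. Cox7a1 falls from 8.87 to 9.60 in Wnt4 +/CreGFP kidneys to 7.55 to 7.82 in the mutant, and Cox7a2l lies higher in each mutant than in its control.

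Some forms of complex IV known from muscle were read in the array that stands apart and not in the others. Cox6a2, the heart and muscle form of subunit 6a, and Cox8b, that of subunit 8, were detected in 1 array each of 24, and so were not kept. For both it was Nes-Cre Wt1 co/co replicate 1, at 7.08 for Cox6a2, with 6.85 to 6.91 in the other arrays, and at 7.31 for Cox8b, with 6.85 to 6.91 in the others. Cox4i2, known from lung and from low oxygen, was also highest in that array at 7.77, with 6.91 to 7.22 elsewhere. Cox7a1 was not, and at 8.62 in that array it lay below all 3 of its controls. The striated muscle list had 4 of 11 tested genes called higher in the Nes mutant, against 11.1% of all tested genes, and 0 in the other mutants. Of its 20 genes on the array 15, 13 and 10 were detected in replicates 1, 2 and 3 of the Nes mutant. In the Wt1 co/co arrays 8, 8 and 9 were detected. The paper reports signs of early muscle differentiation in the expression of this mutant. Without replicate 1 the 15 genes called lower in the Nes mutant were all still called lower. The log2 changes were then -0.62 for Sdhb, -0.44 for Cyc1, -0.40 for Cox5a, -0.36 for Uqcrc1, -0.33 for Uqcrc2, -0.35 for Ndufs3, -0.23 for Ndufs7 and -0.23 for Ndufs8 (limma adjusted p = 3.1e-05 to 0.026). Those of Atp5a1, Atp5g3, Atp5c1 and Atp5sl were -0.89, -0.48, -0.405 and -0.61 (0.00018 to 0.016). Of the 4 genes called higher, Cox7a2l and Ndufc2 were still called, while Atp5g2 was at 0.29 and Ndufa7 at 0.16 (limma adjusted p = 0.084 and 0.15).

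Complex V, the ATP synthase, had 4 of 13 genes called lower in the Nes mutant with 1 higher, 4 lower in the Wnt4 mutant and 3 lower in the Pax8 mutant. These shares called lower were 30.8%, 30.8% and 23.1%, against 13.1%, 8.91% and 3.68% of all tested genes. Atp5a1, the alpha subunit of the F1 head, was at 10.03, 10.30 and 10.30 in Pax8 +/Cre kidneys and at 9.46, 9.36 and 8.79 in the mutant. It was 2.00-fold lower (SE of the log2 change 0.23, limma adjusted p = 0.012), and 0.051 to 0.058 without Pax8 mutant replicate 3 or Pax8 +/Cre replicate 2 or 3. In the Nes set it went from 9.01, 8.56 and 8.16 to 7.91, 7.68 and 7.70, 1.76-fold lower (limma adjusted p = 0.014, and 0.093 without Wt1 co/co replicate 1). In the Wnt4 set the arrays overlap, with controls at 9.97, 9.92 and 9.41 and mutants at 9.37, 9.47 and 10.08 (log2 change -0.13, limma adjusted p = 0.78). The catalytic beta subunit Atp5b lay at 14.44 to 14.83, at the top of the scale. It was called lower in the Wnt4 mutant at -0.22 (limma adjusted p = 0.014, and 0.086 without Wnt4 mutant replicate 1), but at 0.0195 when arrays were scaled to the 75th percentile.

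The c subunit of the rotor ring is made by several genes that encode the same mature protein. Atp5g3 fell by 0.44 in the Nes mutant and 0.40 in the Wnt4 mutant (limma adjusted p = 0.00023 and 0.00057), with non-overlapping arrays, and was at -0.091 in the Pax8 mutant. Under scaling to the 75th percentile these calls were lost, at -0.068 and -0.11. Atp5g2 was called higher in the Nes mutant, by 0.32 (limma adjusted p = 0.033, and 0.074 to 0.14 without replicate 1 of that mutant or Wt1 co/co replicate 1 or 2). In the other mutants it was at 0.17 and -0.041. Atp5c1, the gamma subunit, fell by 0.41 in the Nes mutant (limma adjusted p = 0.0049). Atp5d, the delta subunit, fell by 0.29 and 0.21 in the Wnt4 and Pax8 mutants, the latter call lost without Pax8 mutant replicate 1 or 2 or Pax8 +/Cre replicate 3 (0.055 to 0.082), and Atp5h, subunit d of the stalk, by 0.51 in the Pax8 mutant (limma adjusted p = 0.0034). Atp5j, coupling factor 6, was bright at 11.13 to 12.25 but counted as detected in 9 of 24 arrays, and it was not called. Outside the complexes, Atp5sl was 1.73-fold and 1.39-fold lower in the Nes and Wnt4 mutants (limma adjusted p = 0.00019 and 0.012), the latter 0.064 to 0.069 without Wnt4 +/CreGFP replicate 2 or Wnt4 +/CreGFP Wt1 co/co replicate 1. Cox4nb and Atp5s were not called.

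**Figure D4:**
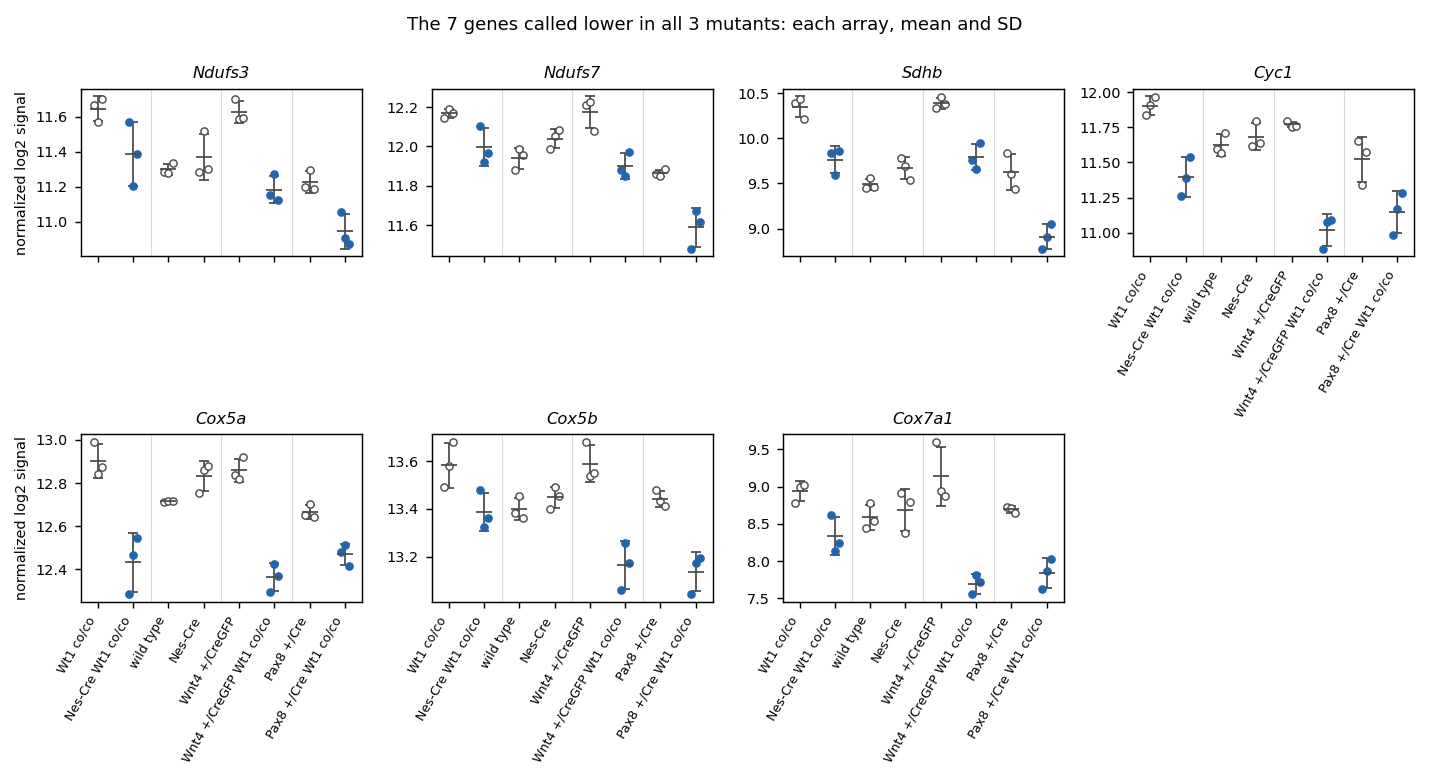
Normalized log2 signal of the 7 genes called lower in all 3 mutants in each array (circles, mutants filled), with the group mean and SD of 3 arrays and grey lines between the 4 array sets. Sdhb, Cyc1 and Cox5a separate mutants from controls in each of the 3 sets, while wild-type and Nes-Cre kidneys overlap for most of the genes.

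Promoters of the kept genes, called or not, were read from RefSeq on GRCm38.p6, from 250 bases before to 50 after the annotated start. A promoter was available for 58 of the 68 genes (5 of the 68 under a newer symbol). Cores of 4 factors known to regulate nuclear genes of the respiratory chain were searched on both strands. NRF1 (CGCATGCG) was in the promoters of 8 of 58 genes, 13.8%, against 2.07% of the 27025 genes in the table. GABPA (CCGGAAG) was in 14, 24.1% against 9.93%, YY1 (AAGATGGC) in 11, 19% against 3.19%, and the oestrogen-related receptor ERR (AAGGTCA) in 6, 10.3% against 5.38%. Among the 29 genes called lower in the Wnt4 mutant with a promoter these were 4, 7, 8 and 1, and among the 19 called in no mutant 3, 5, 2 and 4. For the 12 called lower in the Nes mutant they were 1, 3, 3 and 1, and for the 15 in the Pax8 mutant 0, 4, 2 and 1. For the 6 lower in all 3 mutants they were 0, 2, 1 and 0. The 27025 genes are not limited to those detected in these kidneys, so the shares are not matched for expression. A match shows letters only and not binding. The promoters of 4 genes lower in all 3 mutants and of Cox6a1, which differed between mutants, are printed to show which cores these genes hold, with the matches in capitals. Cox7a1, the gene with the largest fall, has none of the 4 cores, while Ndufs3 has GABPA on both strands and Cox6a1 has NRF1 and GABPA, and no match overlaps another. Cox5a and Cox5b, also lower in all 3 mutants but not printed, have none of the 4 cores either.
Sdhb, chr4:140961021-140961320, plus strand: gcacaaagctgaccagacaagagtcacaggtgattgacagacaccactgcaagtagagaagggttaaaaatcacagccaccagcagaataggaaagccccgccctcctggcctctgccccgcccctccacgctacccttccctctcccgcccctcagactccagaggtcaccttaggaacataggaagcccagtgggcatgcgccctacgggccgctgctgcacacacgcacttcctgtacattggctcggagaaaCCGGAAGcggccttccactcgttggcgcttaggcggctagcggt
Ndufs3, chr2:90904672-90904971, minus strand: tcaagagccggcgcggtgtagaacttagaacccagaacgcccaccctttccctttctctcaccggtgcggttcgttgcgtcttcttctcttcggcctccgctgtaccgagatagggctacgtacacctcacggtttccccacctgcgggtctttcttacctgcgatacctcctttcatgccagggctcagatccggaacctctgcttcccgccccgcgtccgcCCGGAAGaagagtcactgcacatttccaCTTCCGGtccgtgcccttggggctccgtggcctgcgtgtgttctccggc
Ndufs7, chr10:80249199-80249498, plus strand: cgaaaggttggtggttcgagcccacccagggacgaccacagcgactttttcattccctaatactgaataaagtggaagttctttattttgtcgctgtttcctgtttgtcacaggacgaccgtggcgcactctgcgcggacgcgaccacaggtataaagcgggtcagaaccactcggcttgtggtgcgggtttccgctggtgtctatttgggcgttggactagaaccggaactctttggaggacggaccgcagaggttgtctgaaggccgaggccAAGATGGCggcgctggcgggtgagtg
Cox7a1, chr7:30183921-30184220, plus strand: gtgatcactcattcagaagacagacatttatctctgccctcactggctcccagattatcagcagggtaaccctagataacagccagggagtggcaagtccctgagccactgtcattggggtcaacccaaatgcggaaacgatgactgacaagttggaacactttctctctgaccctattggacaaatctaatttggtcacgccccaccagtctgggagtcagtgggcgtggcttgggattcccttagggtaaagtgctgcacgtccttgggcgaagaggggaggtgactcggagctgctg
Cox6a1, chr5:115348909-115349208, minus strand: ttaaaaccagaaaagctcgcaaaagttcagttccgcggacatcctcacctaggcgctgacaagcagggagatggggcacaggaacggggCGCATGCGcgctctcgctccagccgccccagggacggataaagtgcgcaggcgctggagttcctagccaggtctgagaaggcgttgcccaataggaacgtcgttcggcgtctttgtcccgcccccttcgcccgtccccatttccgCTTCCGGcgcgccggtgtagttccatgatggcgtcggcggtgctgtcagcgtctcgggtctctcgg

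The difference between mutants was tested as a difference of effects, each measured within its own set. The kind of control differs, however. The Nes controls carry the conditional allele without Cre, while the Wnt4 and Pax8 controls carry Cre with wild-type Wt1. In differences with the Nes mutant, the kind of control and the mutant cannot be told apart. Between the Nes and Wnt4 mutants 4 of the 68 genes were called, against 2.61% of all tested genes, all with the higher value in the Nes mutant. Cox6a1 was at 12.84, 12.83 and 13.09 in Wt1 co/co and at 13.13, 12.90 and 12.94 in the Nes mutant. It was at 13.16, 12.86 and 13.03 in Wnt4 +/CreGFP kidneys and at 12.51, 12.70 and 12.54 in the mutant. The effects differed by 0.50 (SE 0.12, limma adjusted p = 0.035). The other 3 were accessory subunits of complex I. Ndufa3 differed by 0.50 (0.069 in the Nes mutant and -0.43 in the Wnt4 mutant), Ndufa5 by 0.62 (0.29 and -0.32) and Ndufb7 by 0.59 (0.19 and -0.40), with limma adjusted p of 0.027, 0.046 and 0.046. Each of the 4 calls was lost without 1 array in 6 to 10 of 12 cases, none of the 68 differences was called without Wt1 co/co replicate 1 or 2, Wnt4 +/CreGFP replicate 1 or 3 or Wnt4 mutant replicate 1 or 3, and 1 was called when replicate 1 of the Nes mutant was left out.

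Between the Nes and Pax8 mutants 0 of 68 differences were called by limma, against 2.96% of all tested genes, and 17 had an unadjusted p under 0.05, where 20.1% of all tested genes did. Between the Wnt4 and Pax8 mutants 0 were called, against 0.463%, and 13 had an unadjusted p under 0.05, where 10.3% of all tested genes did. The largest of these was Atp5a1, whose effects in the Wnt4 and Pax8 mutants were 0.87 apart (SE 0.32, limma adjusted p = 0.29). In Nes-Cre against wild-type kidneys 0 of 68 genes were called by limma, against 0.0386% of all tested genes, 4 had an unadjusted p under 0.05, where 7.63% of all tested genes did, and the median log2 change was 0.020.

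Other mitochondrial genes were read from lists, beside 13.1%, 8.91% and 3.68% of all tested genes called lower in the Nes, Wnt4 and Pax8 mutants. The citric acid cycle and pyruvate dehydrogenase, which feed the chain, had 10, 11 and 8 of 16 tested genes called lower in the Nes, Wnt4 and Pax8 mutants and 0 higher, with median log2 changes of -0.34, -0.37 and -0.35. Mdh2, malate dehydrogenase, fell by 0.97 in the Pax8 mutant (limma adjusted p = 9.0e-06), and Fh1, fumarase, by 0.94 in the Nes mutant (limma adjusted p = 3.2e-05). Dlst, of the oxoglutarate dehydrogenase complex, fell by 0.83, 0.84 and 0.42 in the 3 mutants. Carriers, import and chaperone genes had 7, 5 and 1 of 15 called lower and 1 higher in the Wnt4 mutant, with medians of -0.25, -0.10 and -0.25. The phosphate carrier Slc25a3 fell by 0.67 in the Nes mutant and 0.49 in the Pax8 mutant, and Slc25a5, an ADP/ATP carrier, by 0.61 and 0.39 in the Nes and Wnt4 mutants. Assembly factors of the chain had 4, 4 and 1 of 18 called lower and 2 higher in the Nes mutant, with medians of -0.038, -0.17 and -0.022 and with Ecsit, a factor for complex I, lower in all 3 at -0.48, -0.62 and -0.57.

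Regulators of mitochondrial biogenesis and genome upkeep had 5, 3 and 1 of 15 called lower and 1 higher in the Wnt4 mutant, with medians of -0.062, 0.038 and 0.019. The higher one was Nrf1, a transcription factor for nuclear genes of the chain, at 0.66 and just inside the threshold. Ppargc1a, the coactivator PGC-1alpha, fell by 0.82 and 0.45 in the Nes and Wnt4 mutants (limma adjusted p = 0.00035 and 0.026). Esrra, an oestrogen-related receptor, fell by 0.52 and 0.79, and Esrrb, of the same family, by 0.80, 0.94 and 0.79 in the Nes, Wnt4 and Pax8 mutants. Mitochondrial ribosomal proteins had 11, 14 and 2 of 66 called lower and 3, 0 and 0 higher, with medians of -0.041, -0.12 and -0.040. Cytosolic ribosomal proteins had 1, 0 and 0 of 51 called lower and 4, 6 and 4 higher. The shares called higher were 7.84%, 11.8% and 7.84%, against 11.1%, 8.67% and 3.28% of all tested genes, and the median log2 changes were 0.041, 0.12 and -0.0052. Genes of the hypoxia response had 0, 0 and 1 of 10 called lower and 1, 1 and 0 higher.

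**Figure D5:**
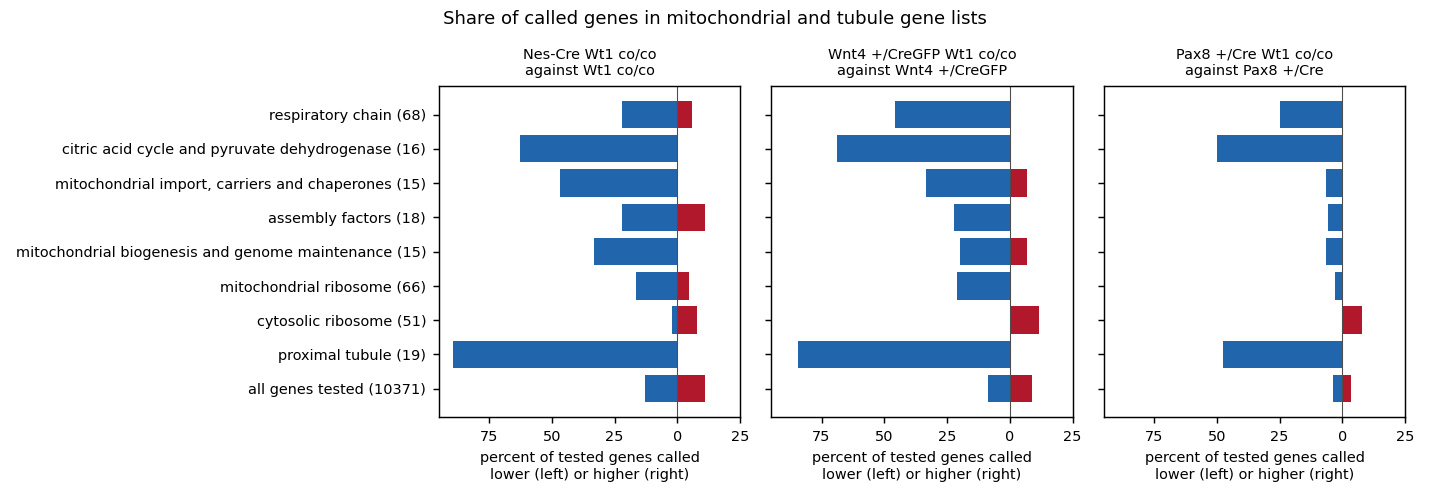
Percent of tested genes called lower (blue, left) or higher (red, right) at an adjusted p under 0.05 from limma in gene lists, with the number tested in brackets, in each mutant. The citric acid cycle list has 10, 11 and 8 of 16 genes called lower and the cytosolic ribosome 1, 0 and 0 of 51.

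Tubule markers were also called lower, beside 13.1%, 8.91% and 3.68% of all tested genes in the Nes, Wnt4 and Pax8 mutants. Of 19 tested proximal tubule genes 17, 16 and 9 were called lower in the Nes, Wnt4 and Pax8 mutants and 0 higher, with median log2 changes of -1.47, -1.60 and -1.11. Their summed level was 36078 to 40935 in Wt1 co/co kidneys and 2602 to 18280 in the Nes mutant. In the Wnt4 set it was 37080 to 41275 in controls and 6811 to 9597 in mutants, and in the Pax8 set 31427 to 34448 and 11466 to 12593. The medians of the 68 respiratory chain genes in the Nes, Wnt4 and Pax8 mutants were -0.074, -0.22 and -0.17. Nes-Cre Wt1 co/co replicate 1 stood apart in both measures, with a summed tubule level of 2602 and a median chain shift of -0.021. Replicates 2 and 3 had summed tubule levels of 12862 and 18280 and chain shifts of -0.13 and -0.10. Of 10 loop of Henle and distal tubule genes 7, 4 and 2 were called lower, and of 5 podocyte genes 4, 3 and 3. Stroma genes had 4, 4 and 1 of 10 called higher, against 11.1%, 8.67% and 3.28% of all tested genes. Their summed level was 30091 in Nes-Cre Wt1 co/co replicate 1, 12394 and 14796 in replicates 2 and 3, and 10419 to 12608 in Wt1 co/co kidneys. In the Wnt4 mutant 3 of 7 erythroid genes were called higher, and endothelial genes had 2, 1 and 0 of 9 called lower in the Nes, Wnt4 and Pax8 mutants. The part of these cell types in the change of the respiratory chain was not tested.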

How the data were processed

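Total RNA of E18.5 kidneys was labelled with biotin and hybridised by the authors to bead arrays, 24 in all. The intensities, as deposited, are 1 linear value per gene symbol without background subtraction or normalization, and how several probes of a gene were combined is unknown. The deposited detection p-values compare each intensity with negative controls of the array. A second deposited table, from GeneSpring, holds each gene as a linear ratio to the median of the 3 control arrays of a set of 6. Replicate numbers 1 and 3 are exchanged between the 2 tables in every group, and the intensities were followed.

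The members, gene lists and comparisons were chosen with earlier results of these data known. Intensities were corrected with neqc of limma 3.58.1 in R 4.3.3 (offset 16, quantile normalization, log2). The background spread it inferred was 112.5 to 396.9 intensity units, which compresses changes near the background. Tested were the 10371 genes that 3 or more of the 24 arrays gave a detection p below 0.01. All arrays entered 1 fit with a mean for each group (lmFit and eBayes, 16 residual and 1.32 prior degrees of freedom), with Benjamini-Hochberg adjustment over all tested genes within a comparison. Every adjusted p in the text is from limma. With 3 arrays per group, their number limits the precision (median SE of a log2 change 0.080 over all genes). Summed levels of a list add the normalized signals of its tested genes on the linear scale, and the background read directly is the median intensity of genes with a detection p of 0.45 to 0.55, subtracted with a floor of 16 before quantile normalization.

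Named genes are, per mutant, the 6 largest calls each way without overlap, the 2 largest changes per complex, isoform pairs and the 3 largest differences of effects, and up to 3 per list. Ndufs3, Ndufs7, Ndufs8, Ndufa3, Ndufa7, Ndufb7, Uqcrc2, Atp5b, Atp5c1, Atp5d, Atp5j, Sdhc, Cox6a2, Cox8b and Nrf1 were added after their values were seen. Alternatives were no background correction, the background read directly, scaling to the 75th percentile, the ratio table, testing every gene or only those detected in all 24 arrays, only the arrays compared, a replicate block, array weights, other controls of the Nes mutant and each array left out. The fit was tested on simulated data. Plots come from matplotlib 3.10.9 under Python 3.11.15. The level of Wt1 was not analysed here. Protein sequences were not used here.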

Additional observations from a re-analysis of the deposited data

Results flagged for a closer look

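Respiratory chain genes whose effect differed between mutants by a test of the difference numbered 4, all between the Nes and Wnt4 mutants. The difference of log2 changes, Nes minus Wnt4, was 0.504 for Cox6a1, 0.503 for Ndufa3, 0.616 for Ndufa5 and 0.593 for Ndufb7, with limma adjusted p of 0.035, 0.027, 0.046 and 0.046. In each of the 4 the highest of the 3 Nes-Cre Wt1 co/co arrays was replicate 1, the array rich in muscle and stroma transcripts. Without it the differences of Cox6a1, Ndufa5 and Ndufb7 were 0.436, 0.479 and 0.546 (limma adjusted p = 0.053, 0.062 and 0.068). The part of that array's other cell types in these differences was not tested. The Nes and Wnt4 controls also differ in Cre and in the conditional allele, which cannot be told apart from the mutants here.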

How the results depend on the processing

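Of the 71 calls of single genes, 15 kept their direction and an adjusted p under 0.05 from limma under every alternative and without each array. They are Uqcrc2 in the Nes mutant, Cox7a1 in the Pax8 mutant and 13 in the Wnt4 mutant, among them Sdhb, Cyc1, Cox5a, Cox7a1, Ndufs3 and Ndufs7. Values that turned sign were Ndufa7 at -0.022 in the Nes mutant with the ratio values, Ndufs3 at 0.018 and Sdhb at 0.090 in the Nes mutant against Nes-Cre kidneys, which crosses array sets, Atp5b at 0.0195 in the Wnt4 mutant and the Nes median at 0.0096 under scaling to the 75th percentile. The cause was not tested. When the change of Nes-Cre against wild-type kidneys was subtracted from the Nes change, 13 of its 19 calls were kept, 6 were lost and 0 turned sign. Sdhb was then at -0.77 and Ndufs3 at -0.33 (limma adjusted p = 0.0020 and 0.055).

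Scaling to the 75th percentile moved the median of all genes to 0.22, 0.12 and -0.011 in the Nes, Wnt4 and Pax8 mutants. It called 8 higher in the Nes mutant, 19 lower in the Wnt4 mutant (median -0.27) and 7 lower in the Pax8 mutant, and 0 and 6 for Nes minus Wnt4 and Nes minus Pax8. With the ratio values, where the median of all genes was -0.19, -0.13 and 0.13, the medians of the 68 were -0.29, -0.51 and -0.052. They called 0 higher in the Nes mutant and 1 lower in the Pax8 mutant, and 0 and 4 for the same differences. Without the detection filter 2 were higher in the Nes mutant, the Pax8 median was -0.13 and 1 was called for Nes minus Wnt4. A fit of only the arrays compared called 0 higher and 1 lower in the Nes mutant, 1 higher in the Wnt4 mutant, 0 for Nes minus Wnt4 and 1 for Wnt4 minus Pax8. With the background read directly 11 were lower in the Pax8 mutant and 2 called for Nes minus Wnt4. Array weights, whose fit stopped short of convergence, called 1 higher in the Wnt4 mutant, 4 higher and 35 lower in the Pax8 mutant, 5 for Nes minus Pax8 and 9 for Wnt4 minus Pax8. Nes-Cre kidneys as the control gave 15 higher in the Nes mutant, 23 for Nes minus Wnt4 and 16 for Nes minus Pax8. The shares of all tested genes called under these settings were not counted.

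Leaving out 1 array at a time gave, in the Nes mutant, 2 to 5 higher, 11 to 18 lower and a median of -0.11 to -0.040. It gave 0 to 1 higher, 18 to 33 lower and -0.25 to -0.20 in the Wnt4 mutant, with 18 without Wnt4 +/CreGFP Wt1 co/co replicate 1. In the Pax8 mutant it gave 0 to 1 higher, 9 to 25 lower and -0.18 to -0.15, with 11, 10 and 9 lower without Pax8 +/Cre replicates 1, 2 and 3. The 2 higher in the Nes mutant came without Wt1 co/co replicate 1 or Nes-Cre Wt1 co/co replicate 1. Differences called ranged from 0 to 7 for Nes minus Wnt4, 0 to 2 for Nes minus Pax8 and 0 to 1 for Wnt4 minus Pax8, and 0 members were called for Nes-Cre alone.

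Replicate numbers do not pair the samples, since the deviations of same-numbered arrays correlated at -0.33 to 0.098 in 12 pairs. With the replicate number as a block 4 were higher and 15 lower in the Nes mutant, 31 lower in the Wnt4 mutant and 15 in the Pax8 mutant, and 3 differed for Nes minus Wnt4. Genes near the background have only weakly measured changes.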
